A study of Mus musculus with 12 samples.

Results

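The alcohol and aldehyde metabolising enzymes described here were 37 genes of the mouse liver, of 54232 gene IDs that were counted. They were chosen by symbol, with earlier results of these data known. They comprised the alcohol dehydrogenases, catalase and Cyp2e1, the aldehyde dehydrogenases, enzymes that activate acetate and related acids, and aldo-keto and carbonyl reductases. Their mRNA was measured by RNA sequencing of whole liver in the intragastric model of alcohol-associated steatohepatitis (ASH), with 1 library per mouse. The control group was 5 pair-fed (PF) mice that were given an isocaloric high-fat liquid diet during 8 weeks. The 7 alcohol-fed (AF) mice were given ethanol by the intragastric route together with the high-fat liquid diet. They received up to 27 g/kg/day of ethanol during these 8 weeks, and from the second week on they had a weekly binge of 5 g/kg. All 12 mice were male C57BL6/J, with 8 weeks as the age in the labels. The study's methods also name a solid Western diet, rich in cholesterol and saturated fat, which was freely available for the rest of the calories.

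In hepatocytes, ethanol is oxidised to acetaldehyde by cytosolic alcohol dehydrogenase, by the microsomal cytochrome P450 Cyp2e1 and, to a lesser degree, by peroxisomal catalase. Aldehyde dehydrogenases in mitochondria and cytosol turn acetaldehyde into acetate, which acyl-CoA synthetases can convert to acetyl-CoA. Related dehydrogenases and reductases handle retinal, lipid aldehydes, aldehydes made during amino acid breakdown, and sugars and ketones.

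Between 24129900 and 30578639 reads per library were counted on genes, and levels are given as CPM, reads scaled to library size with edgeR's TMM factors. PF livers had factors of 0.832 to 0.901 and AF livers of 0.880 (AF 6) to 1.36 (AF 1). Between genes, levels are compared as RPKM, which also divides by exon length. Replicate numbers are used here only to name a mouse, and the labels state no pairing. The quasi-likelihood test of edgeR was applied to 14168 genes, p-values were adjusted by Benjamini-Hochberg, and the threshold was 0.05. Fold changes are AF over PF, and p-values reflect the spread between these mice. In bulk tissue, fewer cells of a type and less RNA per cell cannot be told apart. The 10 hepatocyte marker genes were all present, at a summed level of 99322 to 141914 CPM in PF and 53464 to 104069.9 CPM in AF livers, and 4 of the 10 were lower in AF.

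Of the 37 enzymes, 33 had enough reads to be tested. In AF livers 9 of these rose, which is 27.3% against 22.0% of all genes tested, and 8 fell, which is 24.2% against 17.8%. The median log2 fold change was -0.15 over the 33 enzymes and 0.04 over all genes. Of all calls, 55.3% were increases. Scaling by library totals in place of TMM raised the median of all genes by 0.36 and made 87.3% of all calls increases, with 14 enzymes higher and 7 lower. With limma-voom and sample quality weights, 11 were higher and 14 lower. By role, 2 of the 5 alcohol dehydrogenases tested fell. Among the 9 dehydrogenases of amino acid and folate metabolism, 5 fell and 1 rose. Among the 8 aldo-keto and carbonyl reductases, 5 rose. The largest rise was that of the carbonyl reductase Cbr3, from 0.510 ± 0.211 CPM in PF (SD, n = 5) to 53.7 ± 29.9 CPM in AF livers (SD, n = 7), and the largest fall was that of the alcohol dehydrogenase Adh4, from 205 ± 8.56 to 51.4 ± 32.2 CPM. In 5 enzymes every AF liver lay above every PF liver, and in 6 every AF liver lay below, which is seen in 8.20% and 9.49% of all genes tested.

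**Figure D1:**
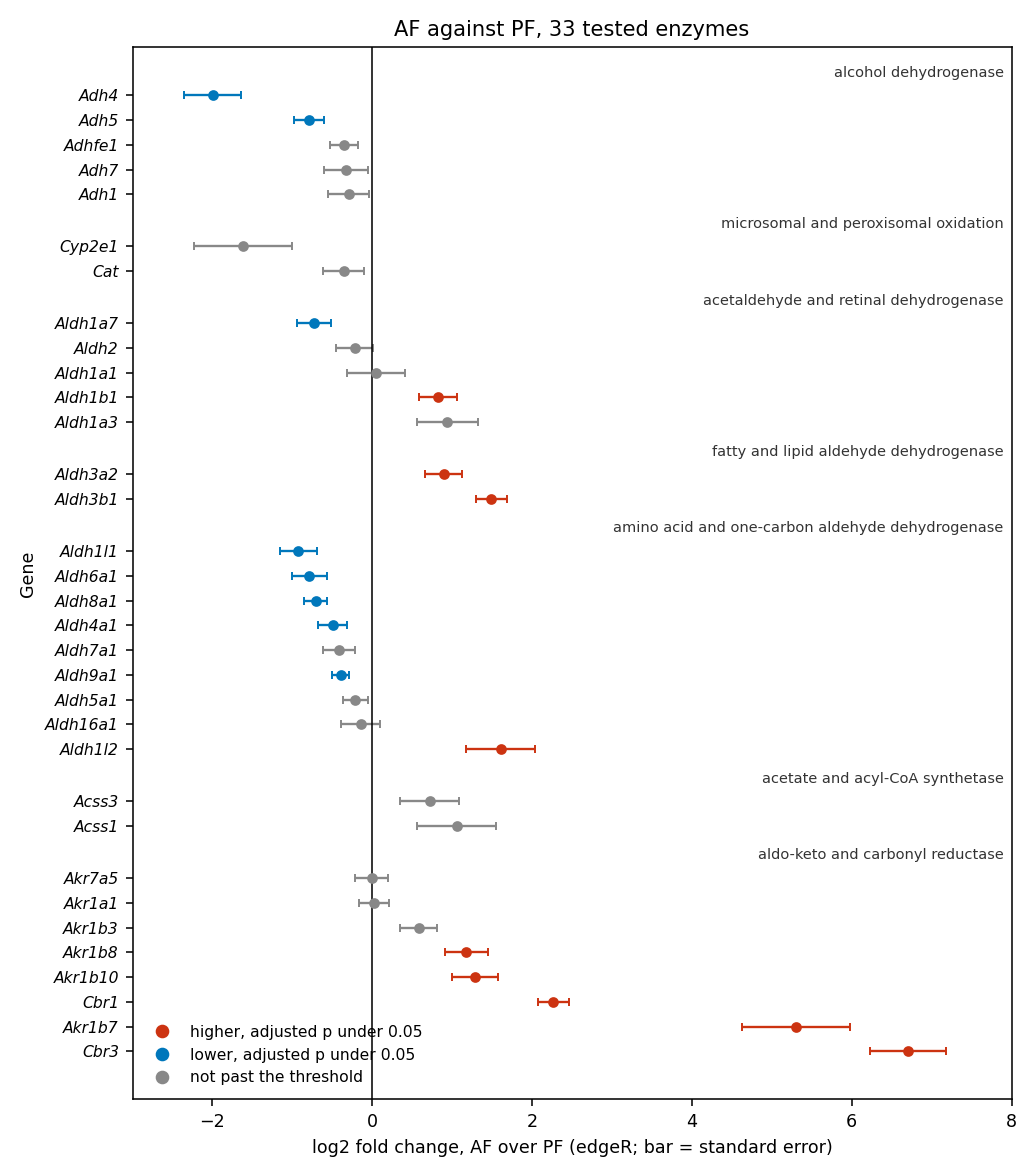
Log2 fold change of AF over PF for each of the 33 tested enzymes, grouped by role, with bars for the standard error of the fit. Red points are the 9 enzymes that rose and blue points the 8 that fell at an adjusted p under 0.05, and grey points did not pass. The reductases reach furthest to the right, up to 6.71 for Cbr3, and Adh4 lies furthest to the left at -1.9955.

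The 6 Adh genes lie side by side on the plus strand of chromosome 3 in GRCm38, in the order Adh7, Adh1, Adh6a, Adh6b, Adh4 and Adh5. Adh1 (chr3:138260991-138290698) encodes the class I enzyme that carries most ethanol oxidation in liver cytosol. Its level in PF livers 1 to 5 was 2037, 1993, 1782, 1702 and 1667 CPM. In AF livers it ran from 803 CPM in AF 1 through a median of 1451 to 2292 CPM in AF 6. The groups overlapped: 5 AF livers lay below all PF livers and 2 lay above. The log2 fold change was -0.30 ± 0.25 (SE, adjusted p = 0.368), with a 95% interval from -0.84 to 0.25.

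Adh4 (chr3:138415466-138430892), the class II enzyme, acts on ethanol mainly at high concentrations and also on longer alcohols and retinol. It stood at 206, 198, 214, 194 and 211 CPM in PF livers 1 to 5. AF livers ran from 17.6 CPM in AF 1 through a median of 39.7 to 100.3 CPM in AF 2. The PF livers lay close together and all 7 AF livers were below them, with a log2 fold change of -1.9955 ± 0.36 (adjusted p = 0.00115), a 3.99-fold decrease. Its neighbour Adh5 (chr3:138443093-138455499), the class III enzyme that clears formaldehyde bound to glutathione, fell from 461 ± 55.9 to 267 ± 79.4 CPM, again with every AF liver below every PF liver (log2 fold change -0.79 ± 0.19, adjusted p = 0.00566). Adh7, the class IV enzyme typical of stomach and other epithelia, was at 3.81 ± 0.366 CPM in PF and 3.04 ± 1.38 CPM in AF livers (adjusted p = 0.358). Adh6a and Adh6b had 12 and 24 reads in all 12 libraries together and were not tested. Adhfe1 on chromosome 1, a mitochondrial enzyme that oxidises hydroxy acids such as 4-hydroxybutyrate, was at 147 ± 6.33 and 115 ± 32.1 CPM (log2 fold change -0.35 ± 0.17, adjusted p = 0.111).

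Cyp2e1 (chr7:140763739-140774987) encodes the ethanol-inducible microsomal P450 of pericentral hepatocytes, and in PF livers it had the highest level per length of the 37 genes. Its level was 10144, 12604, 9476, 9182 and 9716 CPM in PF livers 1 to 5. AF livers 1 to 7 held 472, 5800.2, 1074, 1119, 1086, 6577 and 7236 CPM. Every AF liver lay below every PF liver. These are mRNA levels, and the data here hold no protein. In its chronic plus binge model, which used other mice, the paper reports CYP2E1 protein raised by alcohol feeding. The AF livers themselves were far apart, with AF 2, 6 and 7 at 5800.2 CPM or more and AF 1, 3, 4 and 5 at 1119 CPM or less. The log2 fold change was -1.62 ± 0.61, and the adjusted p of 0.05002 missed the threshold. For mean log2 CPM, a two-sided exact permutation over the libraries gave p = 0.0114, which is not adjusted for the number of genes. Under 9 of 20 alternatives, among them DESeq2 (adjusted p = 0.0152), Cyp2e1 passed the threshold. Under the others it did not, with an adjusted p of up to 0.0941. With limma-voom and sample quality weights its log2 fold change was -2.42 (adjusted p = 0.00197). Catalase (Cat, chr2:103453849-103485160), which breaks down hydrogen peroxide and can oxidise ethanol with it, was at 2640.1, 3046, 2896, 2795 and 2806 CPM in PF livers 1 to 5. In AF livers it ran from 1120.2 CPM in AF 1 through a median of 2255 to 3659.9 CPM in AF 6, which lay above all PF livers while the other 6 lay below (log2 fold change -0.36 ± 0.26, adjusted p = 0.274).

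Cyp2e1 is expressed around the central vein, and of 10 other pericentral markers examined beside it 5 were lower in AF livers. Among those that did not pass, Cyp1a2 and Axin2 had log2 fold changes above 0, at 0.75 (edgeR adjusted p = 0.112) and 0.16 (0.625). The largest PF means were those of Rgn, Oat and Glul, at 1815.5, 1446.4 and 1153.6 CPM. Cyp1a2 had the largest AF mean, at 1018.7 CPM against 607.5 CPM in PF. The summed level of the 10 markers was 5812 to 6203 CPM in PF livers. In AF livers 1 to 7 it was 1015, 3857, 1558, 1586, 1757, 4925 and 4214 CPM, so AF 2, 6 and 7 were the highest of the AF livers for this sum as well as for Cyp2e1. Of 10 periportal markers 1 was lower and 1 higher, with summed levels of 80084 to 120687 CPM in PF livers and 50812, 62344, 68903, 43356, 54071, 86137 and 90336 CPM in AF livers 1 to 7. Alb made up 91.5% of the periportal mean sum in PF and 90.9% in AF livers, and as it is also in the hepatocyte list these sums mostly give the level of that gene. None of these 20 markers was at 0 in all libraries. Their part in the values of Cyp2e1 was not tested.

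**Figure D2:**
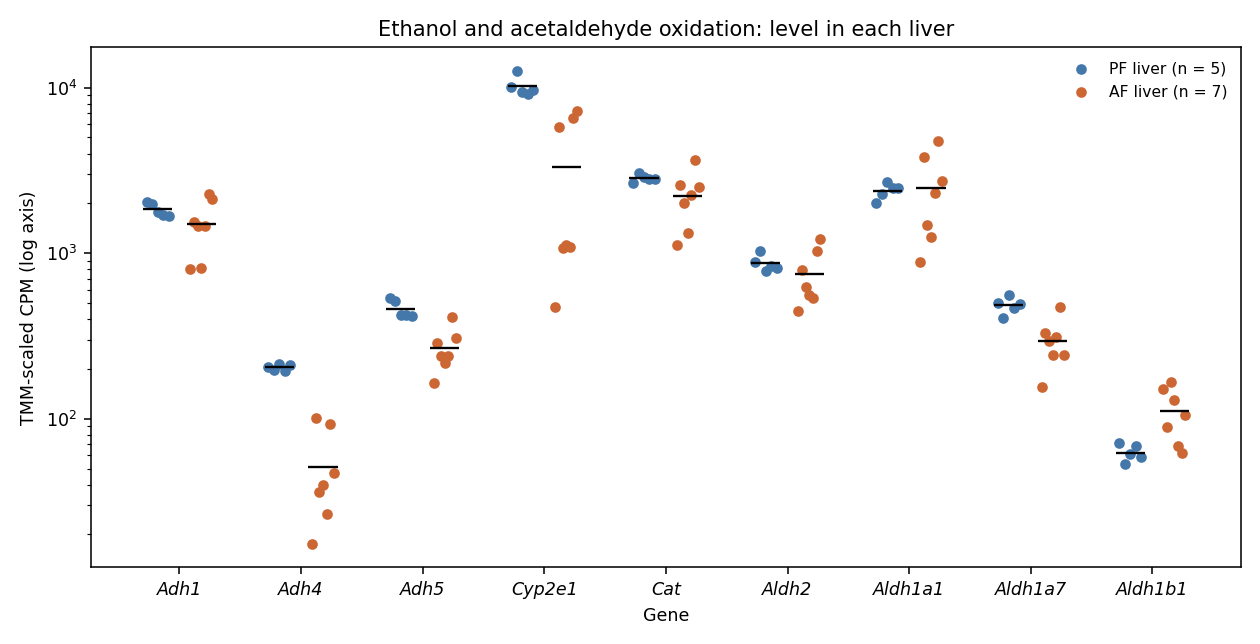
Level in each liver, in TMM-scaled CPM on a log axis, of 9 enzymes of ethanol and acetaldehyde oxidation, with PF livers (n = 5) in blue, AF livers (n = 7) in orange and the group mean as a black line. Adh4, Adh5 and Cyp2e1 show no overlap between groups, while Adh1, Cat, Aldh2 and Aldh1a1 overlap. The AF livers of Cyp2e1 run from 472 to 7236 CPM.

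The promoters of Adh4 and Cyp2e1 are shown because these were the ethanol-oxidising genes with the largest differences. Each run is the 250 bases before the RefSeq start (GRCm38.p6), 5′ to 3′. That start lies 31 bases downstream of the start of the GENCODE gene span for Adh4 and 80 bases downstream of it for Cyp2e1, so the end of each run overlaps the span. Capitals mark TATAAA on either strand.
Adh4, chr3:138415247-138415496, plus strand: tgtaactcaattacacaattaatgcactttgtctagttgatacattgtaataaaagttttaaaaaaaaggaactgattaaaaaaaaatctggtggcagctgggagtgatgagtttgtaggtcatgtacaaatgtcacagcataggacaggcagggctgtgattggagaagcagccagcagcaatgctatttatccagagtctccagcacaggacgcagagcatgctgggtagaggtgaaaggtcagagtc
Cyp2e1, chr7:140763569-140763818, plus strand: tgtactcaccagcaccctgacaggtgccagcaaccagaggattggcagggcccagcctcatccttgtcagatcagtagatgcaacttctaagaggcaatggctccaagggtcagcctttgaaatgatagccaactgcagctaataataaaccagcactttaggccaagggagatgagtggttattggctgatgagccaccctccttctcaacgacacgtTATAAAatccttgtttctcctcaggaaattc
In Cyp2e1 the TATAAA begins 31 bases before the RefSeq start, which is inside the GENCODE span, and the Adh4 run holds no match to these letters. TATAAA occurs in 13.6% of all 32851 windows of the table, which reach from 250 bases before a start to 50 after it.

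Mitochondrial Aldh2 (chr5:121566027-121593824) is the main acetaldehyde dehydrogenase of liver. Its level was 887, 1025, 779, 835 and 810.0 CPM in PF livers 1 to 5, and in AF livers it ran from 447 CPM in AF 1 through a median of 622 to 1221 CPM in AF 7. The groups overlapped, with a log2 fold change of -0.22 ± 0.24 (adjusted p = 0.471) and a 95% interval from -0.73 to 0.29. Its relative Aldh1b1 (chr4:45799022-45804604) is also mitochondrial and able to oxidise acetaldehyde. PF livers 1 to 5 held 71.4, 53.2, 60.9, 68.2 and 58.6 CPM, and AF livers ran from 62.2 CPM in AF 6 through a median of 105 to 168 CPM in AF 3. AF 5 and AF 6 fell within the PF range and the other 5 AF livers lay above it (log2 fold change 0.82 ± 0.23, adjusted p = 0.0140, a 1.77-fold increase).

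Cytosolic Aldh1a1 (chr19:20492715-20643465) oxidises retinal and also acetaldehyde. It was the most abundant aldehyde dehydrogenase per length, at 484 ± 51.7 RPKM in PF and 499.5 ± 288 RPKM in AF livers. In CPM it stood at 2014, 2273, 2687, 2479 and 2489 in PF livers 1 to 5. AF livers ran from 887 CPM in AF 1 through a median of 2311 to 4768 CPM in AF 6, so that 3 AF livers lay below and 3 above the whole PF range (log2 fold change 0.05 ± 0.36, adjusted p = 0.928). Its neighbour on chromosome 19, Aldh1a7, a rodent paralogue, fell from 486 ± 56.4 to 293 ± 99.0 CPM, with 6 of 7 AF livers below all PF livers (log2 fold change -0.73 ± 0.21, adjusted p = 0.0159). Of the 50-base words in the Aldh1a7 exons, 7.49% also occur in Aldh1a1, so reads between these genes could be divided unevenly. Aldh1a2 and Aldh1a3 make retinoic acid from retinal. Aldh1a3 was at 1.15 ± 0.394 and 2.21 ± 1.16 CPM (log2 fold change 0.94 ± 0.39, adjusted p = 0.0677), and Aldh1a2, with 29 reads in the PF and 123 in the AF libraries, was not tested.

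Both tested enzymes of lipid aldehydes rose. Aldh3a2, the fatty aldehyde dehydrogenase of the endoplasmic reticulum, went from 294 ± 69.5 to 546 ± 158 CPM, and 6 of 7 AF livers lay above all PF livers (log2 fold change 0.89 ± 0.23, adjusted p = 0.00862). Aldh3b1 (chr19:3913491-3929808), which oxidises aldehydes from lipid peroxidation, stood at 4.43, 2.24, 1.88, 2.71 and 2.58 CPM in PF livers 1 to 5. AF livers ran from 6.56 CPM in AF 1 through a median of 7.81 to 9.36 CPM in AF 3. All AF livers were above the PF livers, with a coefficient of variation of 12.01% against 35.6% in PF (log2 fold change 1.49 ± 0.19, adjusted p = 1.37e-04, a 2.81-fold increase). Of the 50-base words of its exons, 8.97% are shared with other genes, mainly Aldh3b3 and Aldh3b2. Aldh3a1, known best from cornea, had 8 reads in all libraries.

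The largest role by number comprised 9 dehydrogenases of amino acid and folate metabolism, of which Aldh1l1, Aldh6a1, Aldh8a1, Aldh4a1 and Aldh9a1 fell and Aldh1l2 rose. Aldh1l1, the cytosolic enzyme that oxidises formyl-tetrahydrofolate, fell from 1178 ± 176 to 621 ± 206 CPM, with every AF liver below every PF liver (log2 fold change -0.92 ± 0.23, adjusted p = 0.00686). Its mitochondrial counterpart Aldh1l2 (chr10:83487450-83534140) had 80 reads in the PF and 489 in the AF libraries. PF livers 1 to 5 held 0.197, 0.915, 0.917, 0.590 and 0.860 CPM, and AF livers ran from 0.985 CPM in AF 7 through a median of 1.90 to 4.51 CPM in AF 5. All AF livers lay above the PF livers, AF 7 and AF 2 only narrowly (log2 fold change 1.61 ± 0.43, adjusted p = 0.0106, a 3.05-fold increase). Per length, Aldh1l1 remained far above Aldh1l2 in AF livers, at 138 ± 45.6 against 0.284 ± 0.158 RPKM.

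Aldh6a1, which acts in valine and thymine breakdown, fell from 515 ± 68.3 to 298 ± 101 CPM (log2 fold change -0.79 ± 0.22, adjusted p = 0.0122). Aldh8a1, which acts in tryptophan breakdown, fell from 376 ± 18.6 to 230.1 ± 49.7 CPM with no overlap between groups (log2 fold change -0.71 ± 0.14, adjusted p = 0.00241). Aldh9a1, which acts in carnitine synthesis, had the smallest of the 8 decreases, from 245 ± 12.2 to 186 ± 24.9 CPM, also without overlap (log2 fold change -0.40 ± 0.11, adjusted p = 0.0106), a call that was lost when scaled by library totals. Aldh4a1 acts in proline breakdown and was at 215 ± 13.7 and 152 ± 47.4 CPM (log2 fold change -0.50 ± 0.19, adjusted p = 0.0488). The Aldh4a1 call was lost under 13 of 20 alternatives, and 30.0% of its 50-base words are shared with the overlapping gene Gm21969. The lysine pathway enzyme Aldh7a1 was at 409 ± 27.0 and 307 ± 99.4 CPM (adjusted p = 0.114). Aldh5a1, which clears succinic semialdehyde, was at 75.7 ± 7.36 and 65.4 ± 15.99 CPM (adjusted p = 0.302), and Aldh16a1, a member without the usual catalytic residue, was at 14.6 ± 3.72 and 13.2 ± 4.82 CPM (adjusted p = 0.663).

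Acss1, the mitochondrial synthetase that activates acetate, had 58 reads in the PF and 243 in the AF libraries. It was at 0.492, 0.275, 0.625, 0.393 and 0.769 CPM in PF livers 1 to 5, and AF livers ran from 0.186 CPM in AF 6 through a median of 1.19 to 1.94 CPM in AF 1. AF 6 lay below all PF livers and 4 AF livers lay above them (log2 fold change 1.06 ± 0.50, adjusted p = 0.105). Acss3, a mitochondrial synthetase that prefers propionate, was at 18.2 ± 8.20 and 30.0 ± 12.7 CPM (log2 fold change 0.72 ± 0.37, adjusted p = 0.134).

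The reductases of aldehydes, sugars and ketones held the largest changes among the 37 enzymes. Cbr3 (chr16:93683215-93690990), a carbonyl reductase, had 58 reads in the PF libraries together and 11553 in the AF libraries. PF livers 1 to 5 held 0.591, 0.320, 0.250, 0.708 and 0.679 CPM, and AF livers ran from 28.7 CPM in AF 4 through a median of 42.5 to 109 CPM in AF 6. Every AF liver lay far above every PF liver, with a log2 fold change of 6.71 ± 0.48 (adjusted p = 1.17e-06), a 104-fold increase. Its paralogue Cbr1 (chr16:93605853-93610505), which reduces quinones, prostaglandins and other carbonyls, lies on the same strand of chromosome 16. It was at 34.5, 35.8, 35.8, 35.5 and 27.5 CPM in PF livers 1 to 5, and AF livers ran from 105 CPM in AF 4 through a median of 139 to 224 CPM in AF 5. Again no AF liver overlapped the PF livers (log2 fold change 2.27 ± 0.20, adjusted p = 5.96e-06, a 4.81-fold increase). For both genes AF 5 and AF 6 were the highest livers and AF 4 the lowest. Of the 50-base words of Cbr3, 0.08% also occur in other genes.

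The Akr1b genes of aldose reductase and its relatives form a cluster on chromosome 6. Akr1b7 (chr6:34412334-34423142), an aldose reductase-like enzyme of lipid aldehydes, had 70 reads in the PF and 5687 in the AF libraries. It was at 1.18, 0.183, 0.875, 0.511 and 0.362 CPM in PF livers 1 to 5, and AF livers ran from 2.76 CPM in AF 6 through a median of 21.1 to 54.7 CPM in AF 5. All AF livers lay above the PF livers, with AF 6 nearest to them (log2 fold change 5.31 ± 0.67, adjusted p = 1.14e-04, a 39.6-fold increase). Akr1b8 (chr6:34354119-34368463) was at 2.17, 3.11, 4.54, 3.03 and 2.76 CPM in PF livers 1 to 5, and ran from 3.72 CPM in AF 6 through a median of 6.93 to 9.54 CPM in AF 3. Only AF 6 fell within the PF range (log2 fold change 1.18 ± 0.27, adjusted p = 0.00429). Akr1b10 (chr6:34384218-34396950) was at 2.46, 2.38, 3.54, 4.13 and 2.62 CPM in PF livers 1 to 5, and ran from 3.05 CPM in AF 6 through a median of 7.44 to 12.1 CPM in AF 3. Here too AF 6 alone fell within the PF range (log2 fold change 1.29 ± 0.29, adjusted p = 0.00386). Between 1.18% and 2.90% of the 50-base words of Akr1b7, Akr1b8 and Akr1b10 occur in other genes, in part in each other.

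The aldose reductase Akr1b3 itself was at 11.4 ± 2.21 CPM in PF and 16.98 ± 5.45 CPM in AF livers (log2 fold change 0.58 ± 0.23, adjusted p = 0.0603), and 9.48% of its 50-base words occur elsewhere, mainly in predicted genes. Akr1a1, the aldehyde reductase with the highest level among the 8 listed reductases in PF livers, was at 403 ± 34.0 and 409.9 ± 129 CPM (adjusted p = 0.924). Akr7a5, which reduces aflatoxin aldehyde and succinic semialdehyde, was at 30.8 ± 6.61 and 30.7 ± 9.72 CPM (adjusted p = 0.978). Per length, Akr1a1 held 80.4% of the mean summed level of the 8 reductases in PF and 49.6% in AF livers, while the sum went from 182 ± 15.7 to 301 ± 77.9 RPKM.

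**Figure D3:**
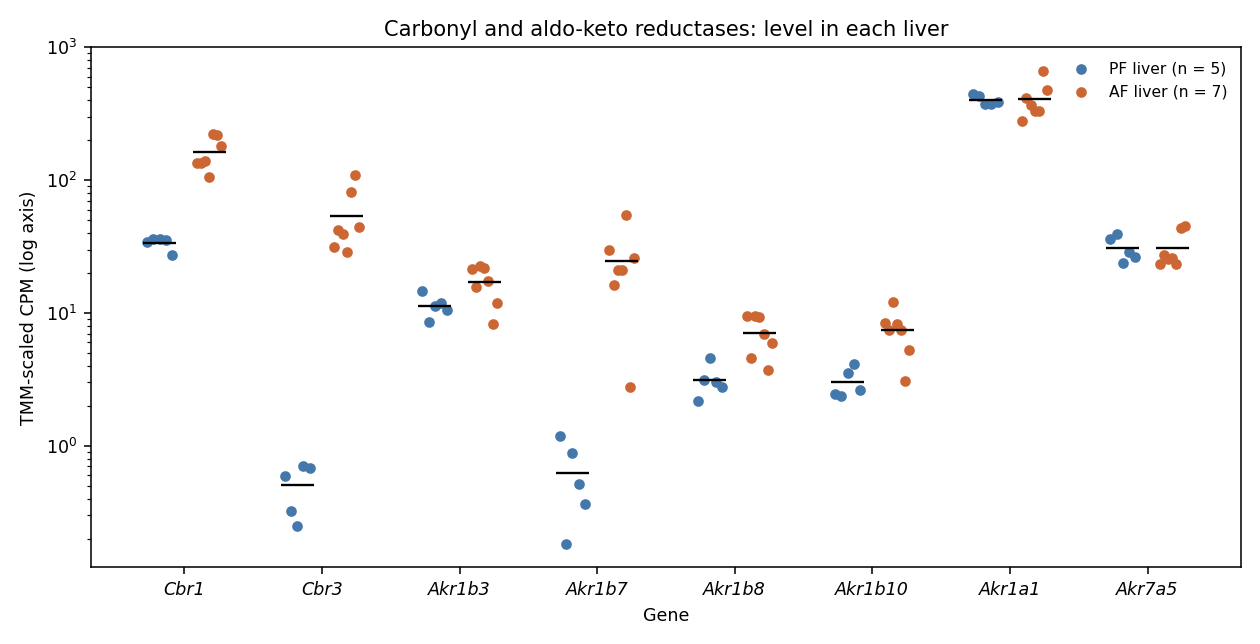
Level in each liver, in TMM-scaled CPM on a log axis, of the 8 aldo-keto and carbonyl reductases, with PF livers (n = 5) in blue, AF livers (n = 7) in orange and the group mean as a black line. For Cbr1, Cbr3 and Akr1b7 no AF liver overlaps the PF livers, and the lowest AF liver of Akr1b7, at 2.76 CPM, is AF 6. Akr1a1 and Akr7a5 overlap.

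Of 9 lists of markers of cells other than hepatocytes, 4 had 3 or more genes higher in AF livers. For bile duct these were Krt7, Krt19, Epcam and Sox9, 4 of 5 markers, with a summed level of 3.16 to 4.96 CPM in PF and 4.95 to 41.5 CPM in AF livers. The fifth, Spp1, which is also in the macrophage list, did not pass (adjusted p = 0.0635) and held most of the full sum of 49.6 to 244 CPM in PF and 70.3 to 1089.8 CPM in AF livers. The others were stellate cells and fibroblasts with 6 of 8 higher (189 to 484 and 408 to 1033 CPM), Kupffer cells with 4 of 5 (574 to 778 and 776 to 2376 CPM), and recruited macrophages with 3 of 6 (70.1 to 289.6 and 138 to 1562 CPM). Spp1, with group means of 126.1 and 403.9 CPM, also held most of this macrophage sum. The macrophage markers that passed were Trem2, Gpnmb and Cd9, while Ly6c2 had a log2 fold change of -0.84 (edgeR adjusted p = 0.219). Of the other 5 lists, sinusoidal endothelium had 1 of 4 markers higher (118 to 225 and 144 to 231 CPM), T cells had 1 of 5 lower (5.51 to 10.1 and 2.35 to 4.46 CPM) and red blood cells 1 of 4 lower (128 to 179 and 27.8 to 172 CPM). Cd4 was the T cell marker that fell, with group means of 3.74 and 0.949 CPM. Cd3e, Cd3d, Cd8a and Trac had group means of 0.9692 CPM or less and did not pass. The red blood cell marker that fell was Alas2, with group means of 124.1 and 38.14 CPM, which made up 81.1% of the mean sum in PF and 42.3% in AF livers. The globins Hbb-bs, Hbb-bt and Hba-a1 had log2 fold changes of 0.81, 0.93 and 1.02 and did not pass the threshold (edgeR adjusted p of 0.1002, 0.0952 and 0.0879). For neutrophils (45.8 to 728 and 29.3 to 149.8 CPM) and B cells (2.36 to 6.38 and 1.12 to 3.46 CPM) none of the 5 and 4 markers passed the threshold. None of the markers was at 0 in all libraries. Their part in the enzymes that rose was not tested.

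Promoters of Cbr3 and Akr1b7, reductases without overlap between groups, are shown as the 250 bases before the RefSeq start (GRCm38.p6), 5′ to 3′. That start lies 4 bases downstream of the start of the GENCODE span for Cbr3 and 28 bases for Akr1b7. The RefSeq start of Cbr1 lies 1984 bases inside its GENCODE span, so its run is not shown. Capitals would mark TATAAA or TGACNNNGC, the core of the antioxidant response element bound by NRF2, on either strand.
Cbr3, chr16:93682969-93683218, plus strand: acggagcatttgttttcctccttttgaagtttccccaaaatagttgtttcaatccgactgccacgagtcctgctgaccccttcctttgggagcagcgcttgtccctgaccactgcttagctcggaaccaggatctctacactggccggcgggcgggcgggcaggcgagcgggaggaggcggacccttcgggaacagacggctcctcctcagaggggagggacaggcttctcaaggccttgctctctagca
Akr1b7, chr6:34412112-34412361, plus strand: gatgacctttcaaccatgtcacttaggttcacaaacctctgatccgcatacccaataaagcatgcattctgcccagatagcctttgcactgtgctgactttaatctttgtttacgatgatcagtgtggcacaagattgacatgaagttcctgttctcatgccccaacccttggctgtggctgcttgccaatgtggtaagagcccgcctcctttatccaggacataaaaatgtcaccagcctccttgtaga
No capitals appear, since neither letter string occurs in these runs. Windows of 300 bases were found for 28 of the 37 genes, and 5 letter strings were searched in them on both strands. These genes had 31 windows, and for 22 of them the RefSeq start was within 100 bases of the start of the GENCODE span. TGACNNNGC was in 3 of the 28 (Adh6a, Aldh1a2 and Aldh9a1), in 0 of the 8 genes that rose and have a window, and in 12.4% of all windows. TGANTCA, the AP-1 site, was in Adh7 and Aldh1a1 (7.81% of all windows). TTGCNNAA, the C/EBP site, was in Adh7, Aldh1a1, Aldh1l1 and Aldh3b1 (10.8%). GTTAATN, part of the HNF1 site, was in Akr1b8 and Aldh1a7 (7.08%). TATAAA was in 6 of the 28 (Adh5, Adh6a, Adh7, Akr1b8, Aldh1a7 and Cyp2e1). A missing match says only that these letters are not in this window. GC content of the windows was 44.0 to 61.7% for genes that rose and 42.3 to 65.0% for genes that fell, around a median of 52.7% over all windows.

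Across the whole set, the 37 genes took 2.02 ± 0.0989% of all counted reads in PF livers (SD, n = 5) and 1.5 ± 0.496% in AF livers (SD, n = 7), with a range from 0.885 to 2.09% among the latter. Cyp2e1 weighs heavily in these shares, with 1157240 reads in the 5 PF and 660542 in the 7 AF libraries. Reads of Cat were 322809 and 468019, of Aldh1a1 273120 and 509438, and of Adh1 207819 and 317404. Per length, the highest levels in PF livers were those of Cyp2e1 (4738 ± 638 RPKM), Cat (1086 ± 56.9), Adh1 (822 ± 75.8) and Aldh1a1 (484 ± 51.7), each apart from the next by more than their SD. In AF livers their means were 1547 ± 1404, 846 ± 326, 670 ± 256 and 499.5 ± 288 RPKM, where neighbours in the order lay within their SD of each other. The order of AF medians was another, with Cat at 863, Adh1 at 650.0, Cyp2e1 at 519 and Aldh1a1 at 468 RPKM, and in AF 1, 3 and 5 both Cat and Adh1 exceeded Cyp2e1. The summed level of Cyp2e1 and Cat went from 5824 ± 676 to 2393 ± 1674 RPKM, and Cyp2e1 made up 81.4% of the PF and 64.6% of the AF mean sum, with 33.8 to 77.7% in single AF livers. For the alcohol dehydrogenases the sum was 1089 ± 85.5 and 786 ± 291 RPKM, of which Adh1 made up 75.5 and 85.2%.

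The AF livers varied more than the PF livers. In 30 of the 33 enzymes the coefficient of variation was larger in AF, against 70.9% of all genes tested, and its median over the enzymes was 12.1% in PF and 34.2% in AF livers. Aldh3b1, Akr1b7 and Acss3 were the exceptions. The same AF livers tended to stand at the ends. AF 1 was the lowest AF liver in 8 of the 8 enzymes that fell, and it was the lowest in 38.7% of all 2519 genes that fell. AF 6 was the highest AF liver in 5 of the 8, and in 38.0% of all genes that fell. Among the 9 enzymes that rose, AF 3 and AF 5 were each the highest in 4 and AF 6 was the lowest in 4. Over all 3116 genes that rose, AF 3 was the highest in 24.4%, AF 5 in 12.5% and AF 1 in 37.5%, though AF 1 was the highest in 0 of the 9, and AF 6 was the lowest in 50.5%. AF 1 also had the highest TMM factor and AF 6 the lowest of the AF livers.

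**Figure D4:**
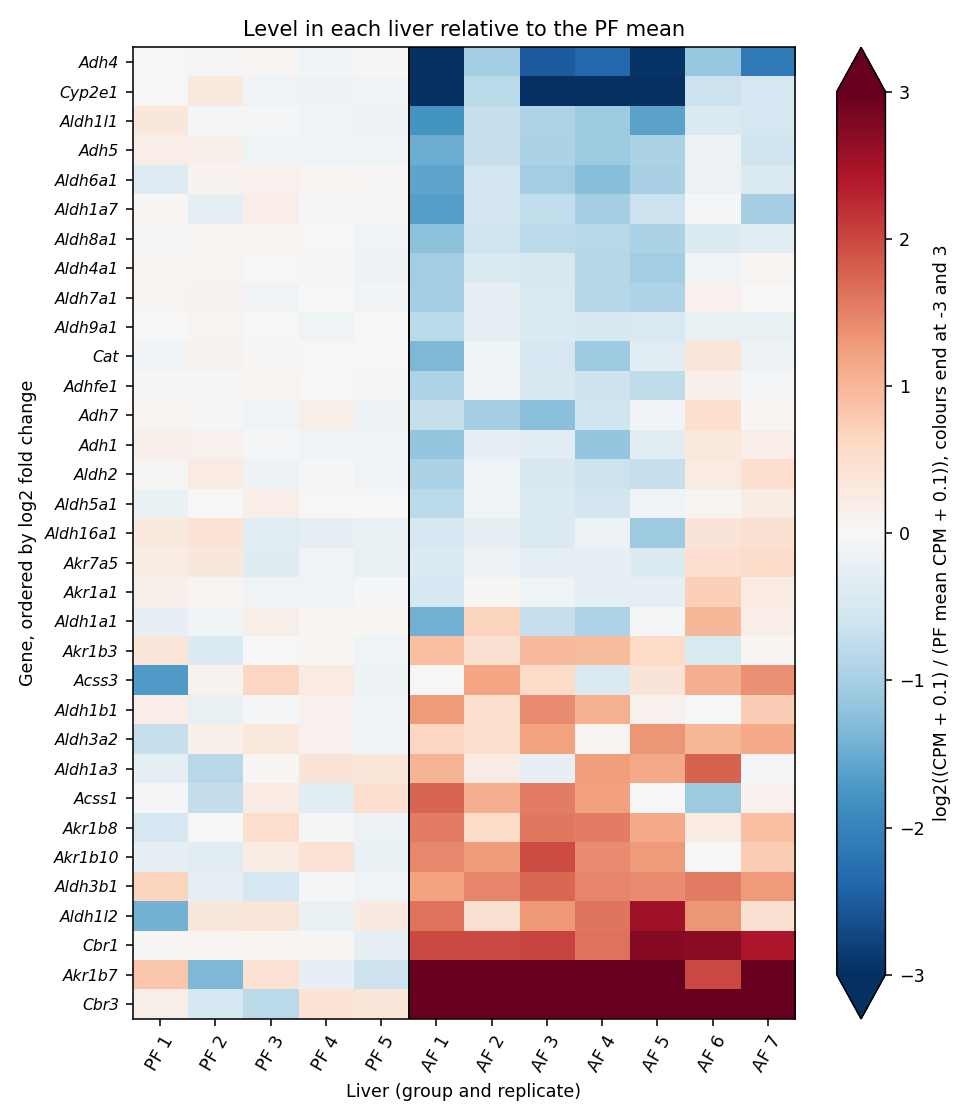
Level of each of the 33 tested enzymes (rows, ordered by log2 fold change) in each liver (columns), as log2 of CPM over the PF mean after adding 0.1 CPM to both, with colours ending at -3 and 3. The 5 PF livers are near 0 in most rows. AF 1 has the lowest value in each of the 8 rows that fell, and AF 2, 6 and 7 are paler for Cyp2e1.

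Ratios between enzymes within a liver depend little on the scaling between libraries, except for Acss1, where the added 0.1 CPM weighs against its low level. For 6 ratios, the mean log2 ratio was compared by an exact permutation test (two-sided, smallest possible p 0.00126), and the p-values were adjusted over the 6. The log2 ratio of Cyp2e1 to Adh1 was 2.32, 2.66, 2.41, 2.43 and 2.54 in PF livers 1 to 5, and ran from -0.77 in AF 1 to 1.91 in AF 2. It was lower in 7 of 7 AF livers than in any PF liver, with a difference of -1.89 in the mean (a 3.72-fold lower ratio), an exact permutation p of 0.00884 and an adjusted p of 0.0530. The log2 ratio of Aldh1b1 to Aldh2 had a mean of -3.80 ± 0.27 in PF and -2.75 ± 0.92 in AF livers and was above all PF livers in 6 of 7 AF livers (difference 1.04, exact permutation p = 0.0404, adjusted p = 0.121). Aldh2 to Adh1 differed by 0.09 (adjusted p = 0.535 by the exact test), Cat to Adh1 by -0.06 (0.535), Aldh1a1 to Adh1 by 0.22 (0.532) and Acss1 to Aldh2 by 1.02 (0.316). None of the 6 ratios passed the threshold after adjustment in this exact test, and 2 had an unadjusted p under 0.05.

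**Figure D5:**
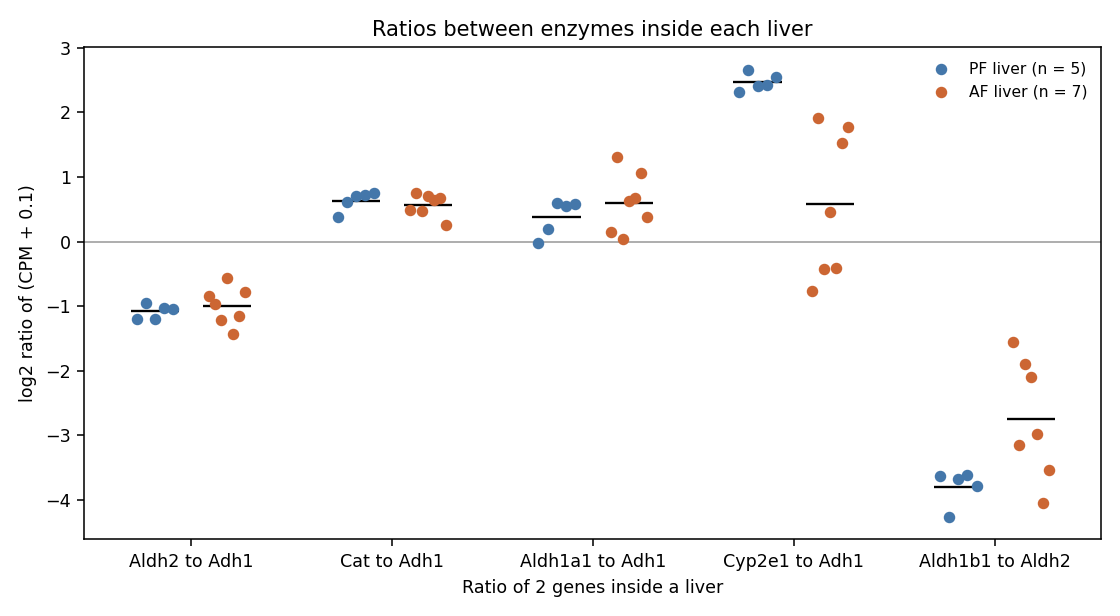
Log2 ratio of CPM (0.1 added) for 5 of the 6 pairs of enzymes inside each liver, with PF livers (n = 5) in blue, AF livers (n = 7) in orange and the group mean as a black line. The Cyp2e1 to Adh1 ratio of every AF liver lies below the PF livers, the highest at 1.91 against a lowest PF value of 2.32, while Cat to Adh1 overlaps.

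Beside these enzymes, 59 genes of the surrounding pathways were listed: acetate use, other aldo-keto and short-chain reductases, aldehyde and retinol oxidation, P450 electron transfer, peroxisomal oxidation, and the shuttles that move NADH equivalents into mitochondria. Of 56 tested, 26 were lower, 3 were higher and 27 did not pass, with a median log2 fold change of -0.40, beside 17.8% lower, 22.0% higher and a median of 0.04 over all genes. This list was chosen with earlier results of these data known, so the shares are descriptive and no test of the list. With library totals in place of TMM, 17 were lower and 16 higher. The largest decreases were those of Acss2, the cytosolic and nuclear acetyl-CoA synthetase, from 381 ± 82.7 to 49.5 ± 13.8 CPM (log2 fold change -2.94 ± 0.21, adjusted p = 1.06e-06), and of the retinol dehydrogenase Rdh11, from 139 ± 29.4 to 24.2 ± 1.59 CPM (-2.52 ± 0.12, adjusted p = 2.77e-08). The increases were in Aldh18a1, which makes the proline precursor P5C (2.90 ± 0.576 to 11.9 ± 4.38 CPM, log2 fold change 2.03 ± 0.28, adjusted p = 1.87e-04), in the lipid droplet protein Hsd17b13 (457 ± 59.7 to 862 ± 179 CPM, 0.92 ± 0.17, adjusted p = 0.00128) and in mitochondrial malate dehydrogenase Mdh2 (110.0 ± 8.04 to 156 ± 24.4 CPM, 0.50 ± 0.12, adjusted p = 0.00517). By gene family, 5 of the 6 Akr1c reductases of steroids were lower in AF livers, as were 3 of 4 Rdh genes, 2 of 3 Cyb5 genes, 1 of 4 Pex genes and 1 of 4 Slc25a carriers, and the 4 Dhrs genes had log2 fold changes from -0.34 to 0.11. These families were grouped after the values were seen.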

How the data were processed

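The authors isolated RNA from whole liver (TRIzol), selected mRNA on oligo(dT) beads and prepared stranded libraries. Per the submitters' processing notes, FastQC 0.10.1, TopHat2 2.0.13, HTSeq 0.10.0 and GRCm38 were used. The annotation and the strand setting of the counting are not given in the sources used here, so genes that overlap others are uncertain. The deposited values are raw counts of reads per Ensembl gene for 12 libraries. Symbols, positions and exon lengths came from GENCODE M21, which named 54079 of the 54232 IDs.

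Counts were scaled with TMM, filtered with filterByExpr and tested with edgeR 4.0.16 in R 4.3.3, with Benjamini-Hochberg adjustment over 14168 genes. The SE was derived from the F statistic. RPKM used TMM-scaled sizes and the union of exons. Ratios used log2(CPM + 0.1). The 31 pairs of libraries within groups all differed beyond counting noise (lowest ratio 20.5). The steps were tested on simulated data. Alternatives were DESeq2 1.42.0, limma 3.58.1 (voom), other scalings and filters, a replicate block, and each library left out.

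The members and lists were chosen with earlier results of these data known. Every member is named. Values of each PF liver, with the lowest, median and highest AF liver (all 7 for Cyp2e1), are given for Adh1, Cyp2e1, Cat, Aldh2, Aldh1a1, Aldh1b1, Acss1 and members past the threshold with a log2 fold change of at least 1 in size, and the 2 largest rises and falls of the surrounding genes (mean log2 CPM of at least 3) are named, with Mdh2 added after its value was seen.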

Additional observations from a re-analysis of the deposited data

Results flagged for a closer look

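In 6 of 78 groups of values (the level of each of the 33 tested members and each of the 6 ratios, in PF and in AF livers), 1 liver stood apart from the rest of its group by Dixon's criterion, where chance gives about 3.9. Cyp2e1 in PF 2 was at 12604 CPM, above 9182 to 10144 CPM in the other PF livers. Aldh1l1 in PF 1 was at 1488 CPM, above 1058 to 1134 CPM, and Aldh6a1 in the same liver was at 394 CPM, below 529 to 558 CPM. Cbr1 in PF 5 was at 27.5 CPM, below 34.5 to 35.8 CPM. Aldh1l2 in AF 5 was at 4.51 CPM, above 0.985 to 2.36 CPM. The log2 ratio of Aldh1b1 to Aldh2 in PF 2 was -4.27, below -3.79 to -3.61. The calls of Aldh1l1, Aldh6a1, Cbr1 and Aldh1l2 held with each library left out in turn.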

How the results depend on the processing

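Of the 17 members called, 15 kept their direction and call under all 20 alternatives. The exceptions were Aldh4a1, lost under 13, and Aldh9a1, lost on library totals (-0.05, adjusted p = 0.578). Cyp2e1 passed under 9 of 20 (adjusted p over the alternatives 0.00197 to 0.0941). Of the 16 members not called, 13 passed under at least 1 alternative: beside Cyp2e1 these were Akr1b3 under 8 (adjusted p 8.73e-04 to 0.140), Aldh1a3 under 5, Acss1 under 4, Adhfe1 and Aldh7a1 under 3, Adh7, Aldh5a1 and Cat under 2, and Acss3, Adh1, Akr1a1 and Aldh2 under 1. Library totals without TMM raised the median log2 fold change of all genes by 0.36 and gave 87.3% higher among all calls against 55.3%, with 14 members and 16 surrounding genes higher and 17 surrounding genes lower. Under it, Adh1 (0.0027), Aldh2 (0.081), Aldh5a1 (0.11), Aldh16a1 (0.18) and Akr7a5 (0.31) turned to the higher side, none of them past the threshold. With limma-voom quality weights 14 members were lower, Aldh1a1 was at -0.37 and Akr1a1 at -0.0615. Akr7a5 was at 0.0447 with upper-quartile scaling and 0.0022 with a filter at 1 count. With each library left out in turn, 9 to 11 members were higher and 7 to 11 lower (11 without AF 6), Aldh1a1 ran from -0.20 to 0.20, Akr1a1 from -0.13 to 0.10 and Akr7a5 from -0.13 to 0.092. The ratio difference of Cyp2e1 to Adh1 ran from -2.12 to -1.67 and passed in 6 of these 12 (adjusted p 0.0260 to 0.0909), and that of Aldh1b1 to Aldh2 from 0.84 to 1.26, passing without AF 6 (adjusted p = 0.0260). A replicate block, which leaves AF 6 and AF 7 without a partner, gave 12 members higher and 16 lower, with Cyp2e1 at -3.0012 (adjusted p = 0.0023), Aldh1a1 at -0.49 and Akr1a1 at -0.23. Same-numbered PF and AF livers did not deviate together (r from -0.08 to 0.12 across genes, and 3 of 10 livers correlated best with their own number). The labels state no pairing, and a low correlation cannot exclude that mice were paired by feeding, so whether the numbers pair them is not known. The causes of these shifts were not tested. Below about 1 CPM in PF livers (Akr1b7, Cbr3, Acss1, Aldh1l2), few reads stand behind each value, and counting error limits the folds.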
